A study of Mus musculus with 10 samples.

Results

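The proteasome genes examined are the rows of the deposited expression table whose symbol starts with Psma, Psmb, Psmc, Psmd, Psme, Psmf or Psmg followed by a digit. This rule, which uses names and no measured value, found 49 of 17658 genes. Of these, 47 encode a subunit, an activator, an inhibitor or an assembly chaperone of the proteasome. They comprise 8 genes of the alpha ring, 4 structural beta subunits, 3 constitutive and 3 immunoproteasome catalytic subunits, 6 ATPases and 11 other subunits of the regulatory particle, 3 chaperones of that particle, 4 chaperones of the core, and 5 activators and inhibitors. The other 2 are Psmc3ip, a factor of meiotic recombination that matches by name only, and Psme2b, a gene copy resembling Psme2; they stay out of the counts by role. Psma8, the alpha subunit of testis, was listed at 0 to 0.1 FPKM in all libraries and was not tested, which leaves 46 tested proteasome genes.

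The study asked which genes inducible through the B cell antigen receptor differ in expression when Nr4a1, an orphan nuclear receptor also called Nur77, is missing. B cells came from spleen and lymph node of C57BL/6 mice aged 10 weeks, of genotype Nr4a1+/+ (wild type) or Nr4a1-/- (knockout), and were enriched magnetically by removal of other cells. There was 1 library without any agent for each genotype, and 4 libraries for each genotype, lettered A to D, from cells given 10 µg/mL anti-IgM for 2 hours. Anti-IgM crosslinks the antigen receptor of the B cell. By their labels, the libraries without any agent were taken at the start, and no library was kept for 2 hours without anti-IgM. Each change with anti-IgM therefore also contains 2 hours in culture, and the part of each was not tested. The labels do not describe the knockout allele or say whether the letters are separate mice, so p-values measure the spread between these libraries, which may be technical. The unit is FPKM (fragments mapped to a gene, divided by transcript length and library size), and changes are differences of log2(FPKM + 1). A change was called at a limma p under 0.05 after Benjamini-Hochberg adjustment over all 10225 genes tested.

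The proteasome degrades proteins tagged with ubiquitin. Its barrel-shaped 20S core has outer rings of alpha subunits and inner rings of beta subunits, of which Psmb6, Psmb7 and Psmb5 carry the beta1, beta2 and beta5 active sites. In lymphoid cells and after interferon these are replaced in newly built cores by Psmb9, Psmb10 and Psmb8, which gives the immunoproteasome, known for producing peptides suited to MHC class I. The 19S regulatory particle binds ubiquitin chains, removes them and unfolds the substrate with a ring of ATPases. Other caps, PA28 alpha-beta (Psme1 and Psme2), PA28 gamma (Psme3) and PA200 (Psme4), open the core without ATP. Subunit genes are known to be raised together by the transcription factor NRF1 (Nfe2l1) when proteasome activity is short.

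Some facts of the whole table bear on these values. Summed FPKM was 557214 to 571784 in the stimulated libraries, 595500 in the unstimulated library labelled knockout and 674961 in the unstimulated wild-type library, which thus stands apart. The median log2 change with anti-IgM over all genes tested was -0.17, beside -0.029 when libraries were rescaled to the same sum, 0.035 under median-of-ratios scaling and 0.0042 under quantile normalization. Gene-level Nr4a1 was 126 FPKM in both unstimulated libraries, 744 to 856 FPKM in stimulated wild-type libraries and 660 to 760 FPKM in those labelled knockout. It overlapped and did not check the labels, so directions refer to libraries as labelled. The 4 B cell markers Cd79a, Cd79b, Ms4a1 and Cd22 summed to 3442 and 3207 FPKM without stimulation and to 1033 to 1152 FPKM after it. Markers of T cells summed to at most 1.10 FPKM and those of NK cells to at most 0.33 FPKM. Myeloid markers summed to 66.9 and 86.8 FPKM without stimulation, 35.9 to 137 FPKM in stimulated wild type and 21.5 to 100.03 FPKM in stimulated libraries labelled knockout, highest in library B of each genotype.

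After anti-IgM, transcripts of the 3 immunoproteasome catalytic subunits fell to well under their unstimulated levels, while the cap gene Psme3 and the 19S subunit gene Psmd11 had the largest rises. Most other proteasome genes changed by a small amount, more often upward. Of the 46 genes 38 were called (82.6%), against 78.9% of all genes tested. Calls were higher for 27 (58.7%), against 31.2% of all genes, and lower for 11 (23.9%), against 47.7% of all genes. Calls with a log2 change of 1 or more in size were upward in 2 of the 46 genes, against 7.94% of all genes tested. They were downward in 3 of the 46 genes, against 12.4% of all genes tested. The median change over the 46 genes was 0.23. The split of 27 higher and 11 lower became 31 and 9 after rescaling to the same sum, 35 and 7 under median-of-ratios scaling and 20 and 16 under quantile normalization, so the sign of a small change rests on the scaling. A total of 23 calls, 16 higher and 7 lower, held under all 20 alternatives of scaling, filter, model and left-out library.

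**Figure D1:**
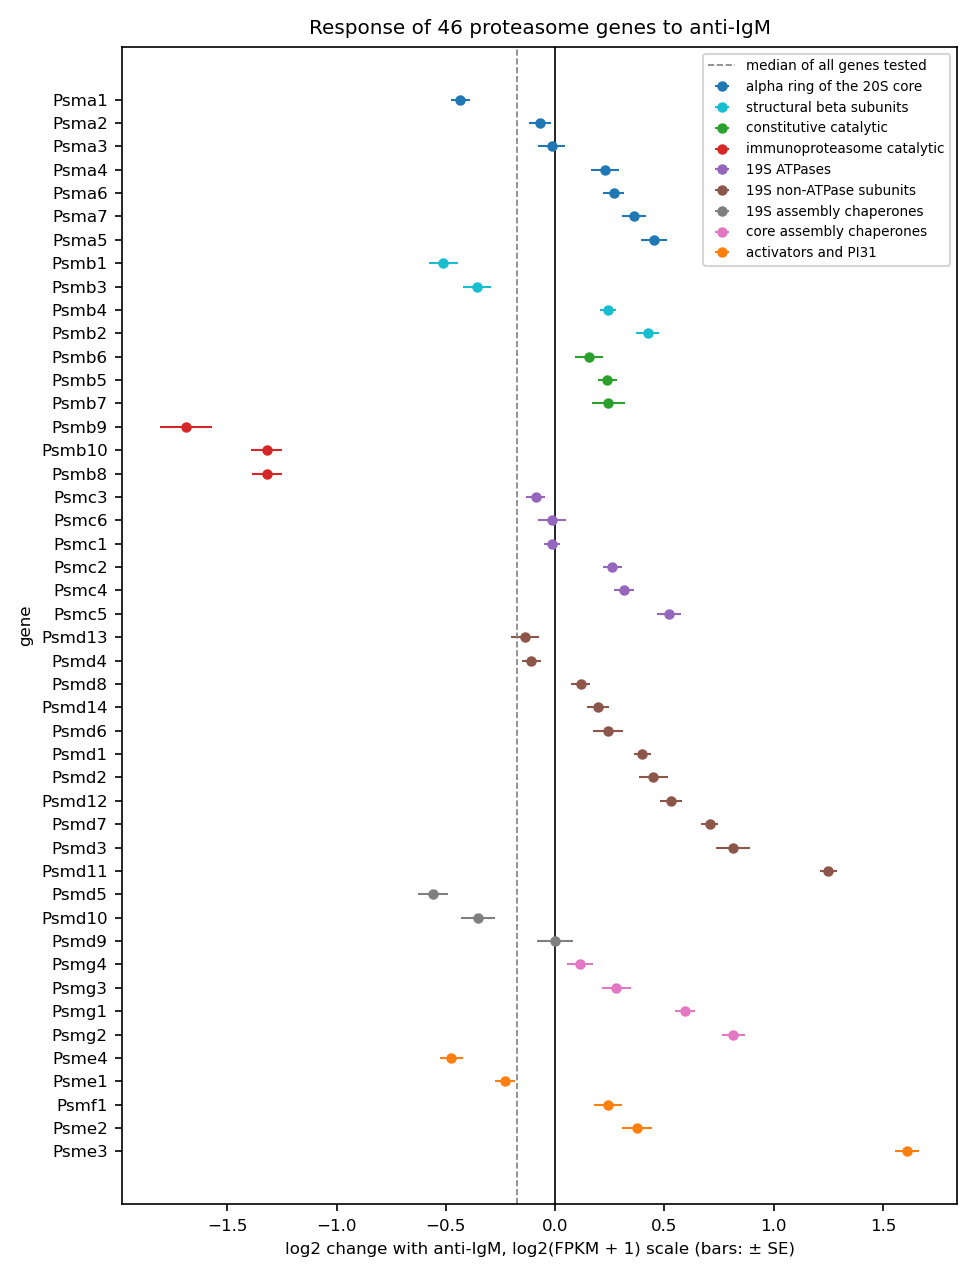
Log2 change with anti-IgM (8 stimulated against 2 unstimulated libraries, genotype as a term) for each of 46 proteasome genes, coloured by role, with bars of ± 1 SE and a dashed line at the median of all genes tested. The 3 immunoproteasome subunits stand at the far left (-1.69 to -1.32), and Psme3 (1.61) and Psmd11 (1.25) at the far right.

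The immunoproteasome subunits carried the 3 largest falls among the proteasome genes. Psmb9, the beta1i subunit, stood at 72.5 FPKM in unstimulated wild-type cells and 66.5 FPKM in unstimulated cells labelled knockout. After anti-IgM its levels in wild-type libraries A to D were 19.5, 22.8, 24.15 and 21.8 FPKM, and libraries A to D labelled knockout held 18.5, 22.9, 22.5 and 15.8 FPKM (values below follow this order). All 8 stimulated libraries thus lay far below both unstimulated ones, and the genotypes overlapped. The stimulated mean was 3.28-fold lower in wild type and 3.34-fold lower in libraries labelled knockout, with a fitted log2 change of -1.69 (SE 0.118, limma adjusted p = 1.43e-07).

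Psmb8, the beta5i subunit and the most abundant of the 3, fell from 139 and 129 FPKM to 54.2, 56.4, 55.8 and 60.6 FPKM in wild type and 47.0, 54.6, 52.4 and 44.9 FPKM in libraries labelled knockout. Its log2 change was -1.32 (SE 0.0697, limma adjusted p = 1.36e-08). Psmb10, the beta2i subunit, fell from 53.5 and 45.8 FPKM to 19.1, 18.3, 20.7 and 22.3 FPKM in wild type and 18.4, 19.8, 17.15 and 18.45 FPKM in libraries labelled knockout. Its log2 change was also -1.32 (SE 0.0714, limma adjusted p = 1.64e-08). For both genes the stimulated and unstimulated values were far apart. Summed over the 3 subunits, FPKM went from 264 and 242 to 92.8 to 104.7 in wild type and 79.1 to 97.2 in libraries labelled knockout. In bulk RNA, fewer cells of a type and less RNA per cell cannot be told apart; the B cell markers named above moved in the same direction, and their part in the fall was not tested.

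Of these genes, Psmb9 and Psmb8 are neighbours within the MHC region (coordinates from RefSeq, GRCm38.p6). Psmb9 lies at chr17:34182030-34187330, Psmb8 at chr17:34198195-34201454, and between them lies Tap1 at chr17:34187556-34197225, which encodes a chain of the peptide transporter that feeds MHC class I. Psmb10 lies apart, at chr8:105935728-105938392. Tap1 fell with them, from 64.3 and 75.0 FPKM to 25.8 to 29.3 FPKM in wild type and 21.9 to 26.55 FPKM in libraries labelled knockout (log2 change -1.42, SE 0.0936, limma adjusted p = 8.66e-08). Psmb9 and Tap1 start back to back, and the 225 bases between their starts (chr17:34187331-34187555, plus strand, 5′ to 3′ towards Tap1) are printed to show this shared stretch, beside the 300 bases around the Psmb8 start (chr17:34197945-34198244, plus strand, 250 before to 50 after). Capitals mark the motif CCAAT in the first and TTCNNNGAA, the consensus of gamma-activated sites, in the second; both strands were searched for these and 4 further motifs.
Psmb9-Tap1 interval: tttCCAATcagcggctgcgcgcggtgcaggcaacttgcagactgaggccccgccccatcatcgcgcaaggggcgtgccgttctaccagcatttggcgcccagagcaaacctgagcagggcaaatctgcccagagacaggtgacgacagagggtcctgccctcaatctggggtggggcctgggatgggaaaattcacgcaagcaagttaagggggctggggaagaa
Psmb8 start: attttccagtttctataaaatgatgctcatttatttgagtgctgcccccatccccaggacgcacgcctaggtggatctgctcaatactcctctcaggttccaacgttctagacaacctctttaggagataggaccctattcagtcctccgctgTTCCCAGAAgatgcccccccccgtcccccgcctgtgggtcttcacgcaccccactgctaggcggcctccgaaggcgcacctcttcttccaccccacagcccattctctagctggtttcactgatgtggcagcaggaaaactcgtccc
A match is a description of letters and not a bound site. TTCNNNGAA is in 3 of the 39 RefSeq promoters of this length found for the 46 genes (7.69%), those of Psmb8, Psmd2 and Psmg1, against 8.44% of the 7462 promoters of tested genes. The consensus of interferon-stimulated elements is in 5 of 39 (12.8%), those of Psmb3, Psmd4, Psmd9, Psmg4 and Psme1, against 3.91% of tested genes, and in none of the promoters of Psmb8, Psmb9 and Psmb10.

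The constitutive partners of these subunits did not fall. Psmb5, the beta5 subunit, rose from 83.3 and 78.0 FPKM to 101, 99.1, 95.0 and 94.5 FPKM in wild type and 89.9, 90.2, 95.7 and 97.3 FPKM in libraries labelled knockout (log2 change 0.24, SE 0.0431, limma adjusted p = 0.000361). All stimulated libraries were above both unstimulated ones. Psmb7, the beta2 subunit, went from 115 and 84.8 FPKM to 116, 117, 122 and 117 FPKM in wild type and 114, 113, 114.5 and 123 FPKM in libraries labelled knockout (log2 change 0.24, SE 0.0740, limma adjusted p = 0.0105). For Psmb7 the distance is to the unstimulated library labelled knockout, and without that library the change was 0.038 (limma adjusted p = 0.493).

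Psmb6, the beta1 subunit, was at 101 and 83.9 FPKM without stimulation. It reached 109, 100.4, 104 and 95.9 FPKM in stimulated wild type and 97.3, 102, 107 and 105 FPKM in stimulated libraries labelled knockout. Its log2 change of 0.15 (SE 0.0656, limma adjusted p = 0.0498) was at the limit of the test, and the groups overlapped. The call was lost when any 1 of 8 libraries was left out (limma adjusted p = 0.0522 to 0.827), all except the unstimulated wild-type library and stimulated wild-type library D. After quantile normalization the change of Psmb6 was -0.035, and neither Psmb5 nor Psmb7 was called.

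**Figure D2:**
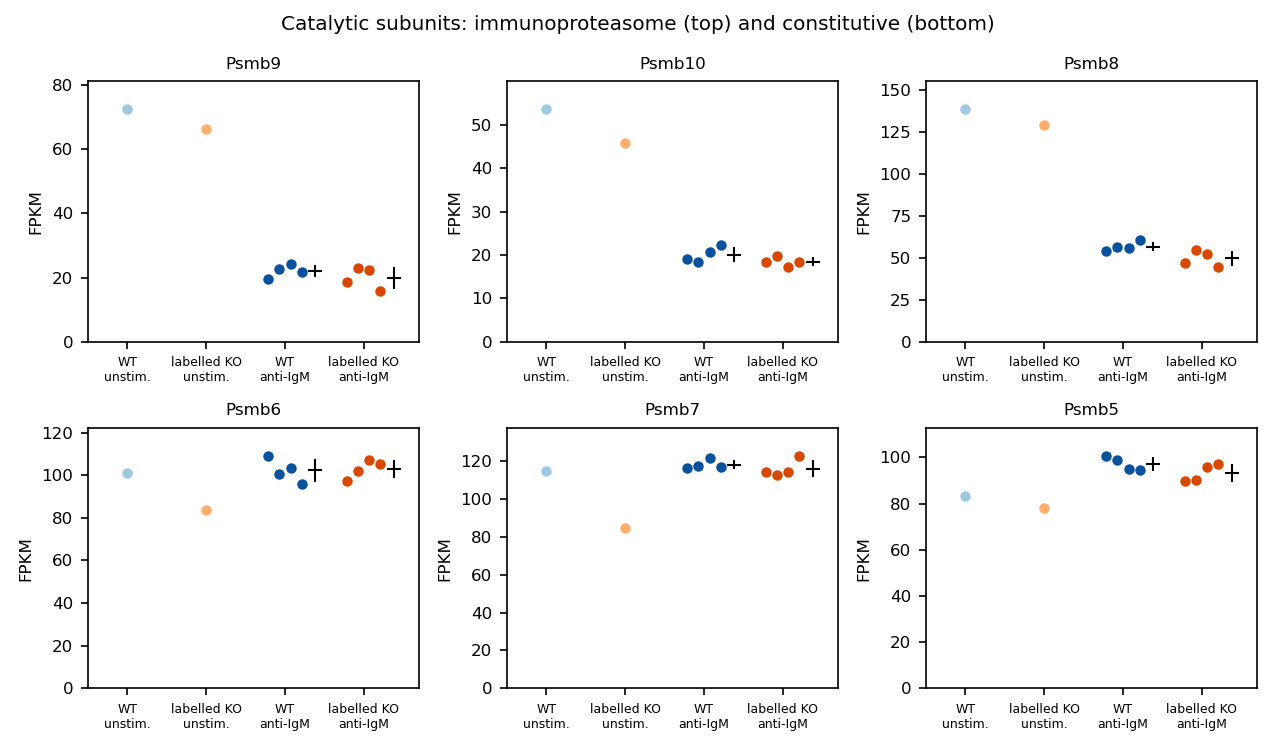
FPKM of the 6 catalytic subunits in every library (points, 1 unstimulated and 4 anti-IgM libraries per genotype), with the mean ± SD of each stimulated group as a black mark and axes from 0. The immunoproteasome subunits in the top row drop after anti-IgM, Psmb9 from 66.5 or more to at most 24.15 FPKM, and the constitutive subunits in the bottom row do not.

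Since each immunoproteasome subunit takes the place of 1 constitutive subunit in the core, the 3 pairs were also compared within each library, where library scaling cancels. Without stimulation, Psmb9 made up 41.8% of summed Psmb9 and Psmb6 FPKM for wild type and 44.2% for the library labelled knockout. After anti-IgM this share averaged 17.8% ± 1.74 in wild type and 16.2% ± 2.28 in libraries labelled knockout (SD, n = 4 each). Psmb10 went from 31.8% and 35.1% of its pair with Psmb7 to 14.5% ± 1.05 and 13.7% ± 0.881 (SD, n = 4 each). Psmb8 went from 62.5% and 62.4% of its pair with Psmb5, where it was the more abundant transcript, to 36.8% ± 1.71 and 34.75% ± 2.55 (SD, n = 4 each), where Psmb5 was. The log2 ratio of each pair changed by -1.89, -1.61 and -1.58 for the beta1, beta2 and beta5 sites. Each gave p = 0.0222 (exact permutation, two-sided), the lowest that 45 labellings of 8 and 2 libraries can give, and 0.0222 after adjustment over the 3 pairs. These are shares of transcript, not of assembled protein.

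**Figure D3:**
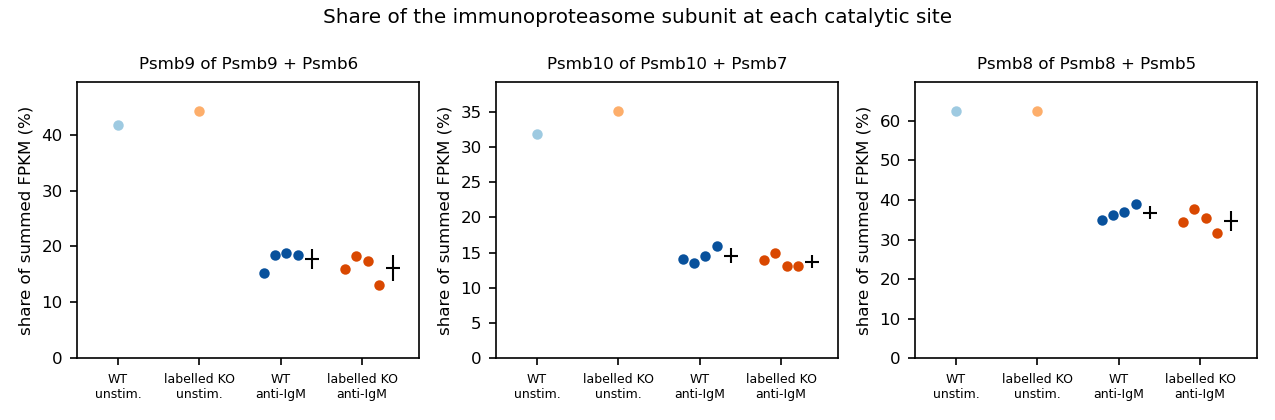
Share of the immunoproteasome subunit in the summed FPKM of each catalytic pair, in percent, for every library (points), with mean ± SD of the stimulated groups (black) and axes from 0. At the beta5 site the share of Psmb8 falls from above 62% in both unstimulated libraries to 31.6% to 39.1% in the 8 stimulated ones.

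Among the other genes of the 20S core, changes went both ways. Of the 7 tested alpha ring genes, which form the gate and outer rings, 4 rose, 1 fell and 2 were not called, with a median log2 change of 0.23. Psma5 (0.45, SE 0.0603, limma adjusted p = 3.32e-05) and Psma7 (0.36, SE 0.0543, limma adjusted p = 8.96e-05) rose under every alternative, and Psma1 fell under every one, from 122 and 106 FPKM to 79.8 to 89.3 FPKM (-0.43, SE 0.0444, limma adjusted p = 3.60e-06). Psma6 (0.27) and Psma4 (0.23) were called higher but not after quantile normalization, and Psma4 also not without the unstimulated library labelled knockout (0.066, limma adjusted p = 0.271). Psma2 (-0.069) and Psma3 (-0.017) were not called.

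The 4 structural beta subunits, which carry no active site, divided into 2 that fell and 2 that rose. Psmb1 was at 193 and 146 FPKM without stimulation, and at 115, 124, 118 and 119 FPKM in stimulated wild type and 114, 113, 121 and 115 FPKM in stimulated libraries labelled knockout. Its fall of -0.51 (SE 0.0667, limma adjusted p = 2.70e-05) left every stimulated library below both unstimulated ones. Psmb3 also fell (-0.36, SE 0.0642, limma adjusted p = 0.000349), but was not called with median-of-ratios scaling (-0.12, limma adjusted p = 0.137). Psmb2 (0.42, SE 0.0514, limma adjusted p = 1.53e-05) and Psmb4 (0.24, SE 0.0363, limma adjusted p = 8.68e-05) rose, though Psmb4 stood at -0.0082 after quantile normalization. Summed FPKM of the 14 tested core genes other than the immunoproteasome subunits was 1841 and 1535 without stimulation, 1772 to 1827 in stimulated wild type and 1737 to 1831 in stimulated libraries labelled knockout.

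Of the 17 subunit genes of the 19S regulatory particle 12 rose, 1 fell and 4 were not called, with a median log2 change of 0.26. Their summed FPKM went from 1028 and 1016 to 1257 to 1308 in wild type and 1257 to 1304 in libraries labelled knockout. Among the 6 ATPases, which unfold the substrate, Psmc5 (0.52, SE 0.0548, limma adjusted p = 4.73e-06), Psmc4 (0.31, SE 0.0450, limma adjusted p = 5.82e-05) and Psmc2 (0.26, SE 0.0428, limma adjusted p = 0.000168) rose under every alternative. Psmc1 (-0.014), Psmc3 (-0.089) and Psmc6 (-0.016) were not called. Each was positive and called with median-of-ratios scaling. After quantile normalization Psmc1 (-0.13, limma adjusted p = 0.0185) and Psmc3 (-0.23, limma adjusted p = 0.000835) were called lower. Psmc6 stood at -0.18 without the unstimulated library labelled knockout and at 0.15 without the unstimulated wild-type library.

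Psmd11, a scaffold subunit of the 19S lid, had the second largest rise of all 46 genes. Its levels were 57.7 and 56.3 FPKM without stimulation, 136, 133, 139.6 and 132 FPKM in stimulated wild type and 138, 134, 139 and 145 FPKM in stimulated libraries labelled knockout. The stimulated libraries formed a narrow band at 2.34 and 2.46 times the unstimulated level of their genotype (log2 change 1.25, SE 0.0404, limma adjusted p = 3.67e-10). Psmd3, another lid subunit, rose from 29.7 and 40.1 FPKM to 63.2, 62.7, 61.5 and 60.8 FPKM in wild type and 60.6, 61.3, 63.2 and 58.9 FPKM in libraries labelled knockout (0.82, SE 0.0775, limma adjusted p = 1.92e-06). Psmd7, the partner of the lid's deubiquitinase, rose from 51.4 and 56.3 FPKM to 87.8, 88.55, 89.3 and 82.9 FPKM in wild type and 91.4, 88.8, 89.96 and 89.7 FPKM in libraries labelled knockout (0.71, SE 0.0390, limma adjusted p = 1.92e-08). In all 3 genes every stimulated library exceeded both unstimulated ones.

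Of the other non-ATPase subunits, Psmd12 (0.53), Psmd2 (0.45) and Psmd1 (0.40) rose under every alternative. Psmd6 (0.24), Psmd14 (0.19), which is the deubiquitinase of the lid, and Psmd8 (0.12) were called higher, but were not called after quantile normalization. Nor were they called without the unstimulated library labelled knockout, where their changes were 0.10, 0.14 and 0.045. Psmd4, a ubiquitin receptor, was called lower at -0.11 (SE 0.0439, limma adjusted p = 0.0384). It overlapped between groups, lost the call when any 1 of 6 libraries was left out (limma adjusted p = 0.0536 to 0.504), and was at 0.12 with median-of-ratios scaling (limma adjusted p = 0.0195). Psmd13 was not called (-0.14, limma adjusted p = 0.0658). It was called lower after quantile normalization (-0.22, limma adjusted p = 0.0125), and with median-of-ratios scaling it was at 0.093 and not called.

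The chaperones that build the 2 particles differed in direction. Those of the 20S core hold the alpha ring together during assembly, and 3 of 4 rose. Psmg2 went from 40.35 and 36.0 FPKM to 72.3, 69.5, 69.7 and 65.1 FPKM in wild type and 65.2, 62.35, 68.75 and 70 FPKM in libraries labelled knockout (0.81, SE 0.0536, limma adjusted p = 8.38e-08). Its partner Psmg1 went from 15.5 and 13.3 FPKM to 22.7, 22.3, 23.1 and 22.8 FPKM in wild type and 20.9, 21.7, 22.0 and 22.2 FPKM in libraries labelled knockout (0.59, SE 0.0464, limma adjusted p = 3.59e-07). The values of this pair did not overlap between stimulated and unstimulated libraries. Psmg3 rose (0.28, SE 0.0665, limma adjusted p = 0.00246), and Psmg4 was not called (0.11, limma adjusted p = 0.0963).

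Of the 3 chaperones of the 19S base none rose. Psmd5 fell from 25.0 and 20.6 FPKM to 15.4, 15.75, 15.7 and 15.4 FPKM in wild type and 13.7, 14.85, 13.6 and 16.4 FPKM in libraries labelled knockout (-0.56, SE 0.0688, limma adjusted p = 1.68e-05), with every stimulated library below both unstimulated ones. Psmd10, known as gankyrin, fell (-0.35, SE 0.0776, limma adjusted p = 0.00138) but was not called with median-of-ratios scaling (-0.13, limma adjusted p = 0.188). Psmd9 was not called at a change near 0 (SE 0.0832, limma adjusted p = 0.998), and was higher after quantile normalization (0.37).

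Psme3 encodes PA28 gamma, the cap of nuclear proteasomes that acts without ubiquitin, and it had the largest rise of the 46 genes. Its unstimulated levels were 69.8 FPKM for wild type and 86.4 FPKM for the library labelled knockout. After anti-IgM it stood at 237, 234, 245 and 237 FPKM in wild type and 244, 237, 236 and 243 FPKM in libraries labelled knockout. The 8 stimulated libraries were within a narrow band far above both unstimulated ones, at 3.41 and 2.78 times the level of their genotype (log2 change 1.61, SE 0.0559, limma adjusted p = 5.75e-10). With a stimulated mean of 239 FPKM it was then the most abundant proteasome transcript per length, next to Psme2 at 236 FPKM, from which its values did not separate.

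**Figure D4:**
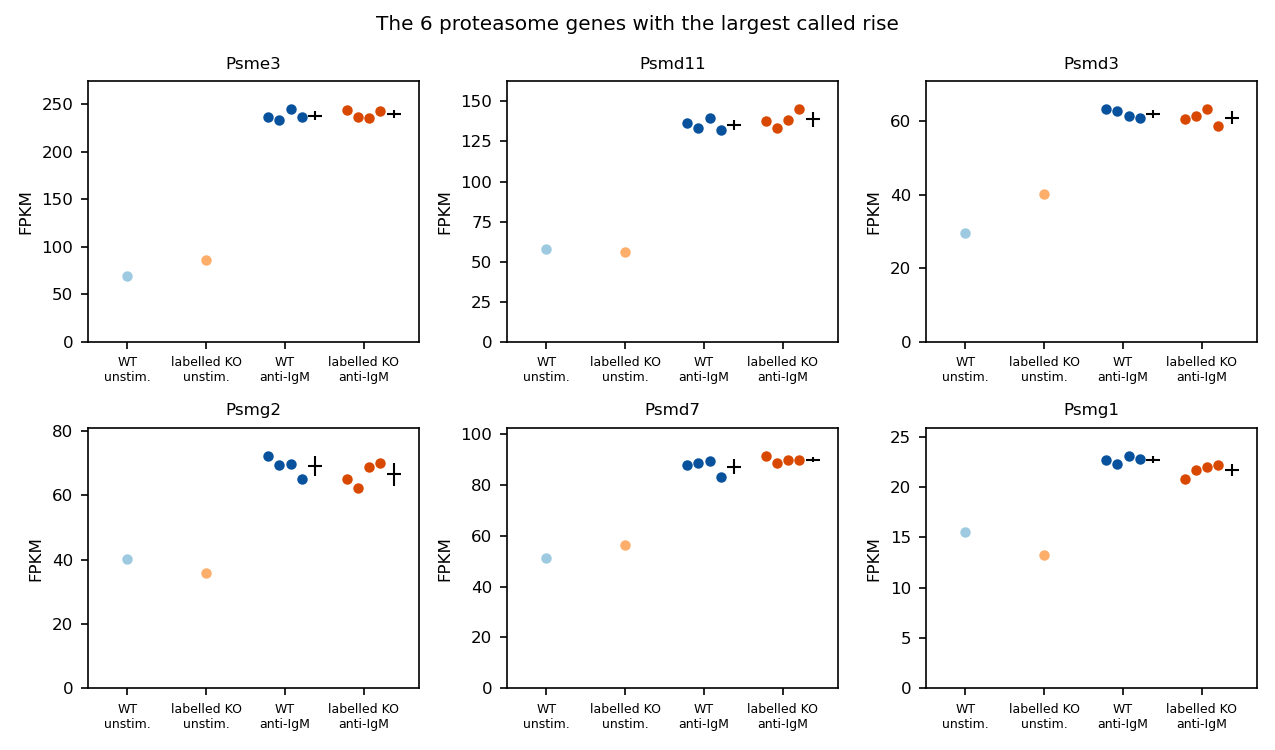
FPKM in every library of the 6 proteasome genes with the largest called rise (points), with mean ± SD of the stimulated groups (black) and axes from 0. In each panel all 8 stimulated libraries are above both unstimulated ones, and those of the 2 genotypes are close together. For Psmg1 the stimulated libraries labelled knockout (20.9 to 22.2 FPKM) are all below those of wild type (22.3 to 23.1 FPKM).

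Of the other cap genes, Psme2 rose and Psme1 and Psme4 fell. Psme1, PA28 alpha, fell from 212 and 191 FPKM to 168 to 179.6 FPKM in wild type and 161 to 179.0 FPKM in libraries labelled knockout (-0.23, SE 0.0473, limma adjusted p = 0.000921), though with median-of-ratios scaling its change was 0.0056. Psme2, PA28 beta, rose from 209 and 158 FPKM to 233 to 264 FPKM and 220 to 239 FPKM (0.37, SE 0.0698, limma adjusted p = 0.000443). Its resembling copy Psme2b fell from 18.9 and 20.2 FPKM to 7.71 to 12.3 FPKM (-0.97, SE 0.126, limma adjusted p = 2.49e-05), and reads may be divided between these copies in a way the values do not show. The ratio of Psme3 to Psme1 FPKM was 0.330 and 0.452 in the unstimulated libraries and 1.32 to 1.52 in the 8 stimulated ones. Psme4, PA200, fell from 28.2 and 32.3 FPKM to 21.8, 20.5, 20.1 and 21.6 FPKM in wild type and 20.6, 22.8, 22.2 and 22.1 FPKM in libraries labelled knockout (-0.48, SE 0.0527, limma adjusted p = 7.05e-06). Psmf1, the inhibitor PI31, rose by 0.24 (SE 0.0623, limma adjusted p = 0.00401) at a low level of 9.41 to 12.9 FPKM, but not without the unstimulated wild-type library (0.13, limma adjusted p = 0.107).

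The 300 bases around the starts of Psme3 (chr11:101315963-101316262, plus strand) and Psmd11 (chr11:80428365-80428664, plus strand) are shown because these genes had the largest rises (RefSeq, GRCm38.p6, 5′ to 3′, 250 before to 50 after the start). Capitals mark CTTCCG or its reverse complement, a core of ETS factor sites, and in Psme3 also CACGTG, an E-box, and the reverse complement of CCAAT.
Psme3 start: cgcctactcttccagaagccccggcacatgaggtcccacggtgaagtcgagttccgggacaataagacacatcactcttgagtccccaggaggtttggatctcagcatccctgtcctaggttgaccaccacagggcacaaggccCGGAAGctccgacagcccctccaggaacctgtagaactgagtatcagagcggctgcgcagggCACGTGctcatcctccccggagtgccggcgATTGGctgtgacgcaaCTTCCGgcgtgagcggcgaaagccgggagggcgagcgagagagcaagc
Psmd11 start: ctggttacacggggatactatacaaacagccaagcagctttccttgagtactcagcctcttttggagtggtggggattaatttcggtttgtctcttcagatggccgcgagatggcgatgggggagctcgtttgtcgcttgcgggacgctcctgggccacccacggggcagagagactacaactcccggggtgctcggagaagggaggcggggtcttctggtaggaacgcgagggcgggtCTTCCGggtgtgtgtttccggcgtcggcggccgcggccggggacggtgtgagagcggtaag
CTTCCG on either strand is in 21 of the 39 promoters found for the 46 genes (53.8%), against 39.9% of the 7462 promoters of tested genes and 18.8% of all 27025 promoters. Among tested genes called higher with anti-IgM the share was 41.4%, and among those called lower 39.0%. CACGTG is in 4 of 39 (10.3%) against 12.8% of tested genes, and CCAAT in 13 of 39 (33.3%) against 43.3%. TGACNNNGC, the core of the element bound by NRF1 with its partners, is in 6 of 39 (15.4%), those of Psmb5, Psmb6, Psmc6, Psmd12, Psmd9 and Psme4, against 17.3% of tested genes. Of these 6 genes 3 were called higher and 1 lower with no minimum size, beside 27 higher and 11 lower of all 46 genes. A window of this length can miss elements elsewhere.

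Genes that work with the proteasome but fall outside the name rule were taken from lists. Their shares are to be read beside the 31.2% of all genes tested that were called higher and the 47.7% called lower. Of 11 further subunits and interacting factors with a row, 7 rose (63.6%), 3 fell (27.3%) and 1 was not called, with a median log2 change of 0.45. The proteasome-bound deubiquitinases Usp14 (0.72) and Uchl5 (0.55), the ubiquitin receptor Adrm1 (0.61) and the thioredoxin-like Txnl1 (0.63) rose. Ublcp1, a phosphatase that acts on the nuclear proteasome, fell from 79.1 and 70.45 FPKM to 16.4 to 19.8 FPKM (-1.98, SE 0.0489, limma adjusted p = 6.55e-11). Pomp, the maturation factor of new cores, rose by 0.16 (SE 0.0550, limma adjusted p = 0.0176). Of 7 genes of the NRF1 pathway 5 rose (71.4%) and 2 fell (28.6%). Nfe2l1 itself rose from 29.1 and 40.1 FPKM to 72.9 to 75.1 FPKM in wild type and 76.7 to 80.6 FPKM in libraries labelled knockout (1.14, SE 0.0645, limma adjusted p = 2.46e-08). Ddi2, the protease that activates NRF1, rose (0.64, limma adjusted p = 0.000214), and Ngly1, which removes its glycans, fell (-1.24, limma adjusted p = 1.26e-07).

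Among 13 genes that supply ubiquitin or shuttle it to the proteasome, 7 rose (53.8%), 3 fell (23.1%) and 3 were not called, again beside 31.2% and 47.7% of all genes. The shuttle Rad23b rose from 46.5 and 52.7 FPKM to 119 to 129 FPKM (1.31, SE 0.0492, limma adjusted p = 1.00e-09), and Ubqln4 rose by 1.01 (SE 0.0572, limma adjusted p = 2.33e-08). Of 12 genes of the MHC class I pathway, 8 fell (66.7%) and 4 rose (33.3%, near the share of all genes). Their median log2 change was -0.17, the same as over all genes tested. Besides Tap1, Tap2 (-0.83) and Irf1 (-0.74) fell, while Erap1 (SE 0.0454) and Calr (SE 0.102) each rose by 0.55. For Calr, stimulated wild-type values (247 to 336 FPKM) overlapped the unstimulated ones (189 and 255 FPKM). Stimulated libraries labelled knockout held 351 to 362 FPKM of Calr. Of 11 tested interferon response genes 10 fell (90.9%, against 47.7% of all genes) and 1 was not called, with a median of -0.68, against -0.17 over all genes.

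Between genotypes, none of the 46 proteasome genes was called in the stimulated libraries, whereas 9.72% of all genes tested were called (3.91% higher and 5.81% lower in libraries labelled knockout). By limma, 2 of the 46 had an unadjusted p under 0.05, against 2262 of all 10225 genes tested. The changes ranged from -0.19 to 0.058 on the log2 scale, and the median was -0.023, beside -0.024 over all genes. The largest was that of Psmb8, with a mean of 56.75 ± 2.75 FPKM for wild type and 49.7 ± 4.53 FPKM in libraries labelled knockout (SD, n = 4 each; -0.19, SE 0.0620, limma adjusted p = 0.0960). Without stimulated library B labelled knockout it was called (-0.24, limma adjusted p = 0.0394); that library held 82.6 FPKM of the myeloid gene Lyz2, against 15.8 to 53.0 FPKM in the other 3, and the part of this was not tested. The other gene was Psmg4 (-0.12, SE 0.0517, limma adjusted p = 0.223), which was called without stimulated wild-type library C (-0.17, limma adjusted p = 0.0278). Psmb9 (-0.15, limma adjusted p = 0.472) and Psmb10 (-0.11, limma adjusted p = 0.336) were lower in the mean as well, with overlapping libraries.

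None of the catalytic pairs passed its test between genotypes. The log2 ratio in libraries labelled knockout minus wild type was -0.17 for Psmb9 to Psmb6 (two-sided exact permutation p = 0.286), -0.096 for Psmb10 to Psmb7 (exact permutation p = 0.286) and -0.13 for Psmb8 to Psmb5 (exact permutation p = 0.257), each 0.286 after adjustment over the 3 pairs. The smallest p that 70 labellings allow is 0.0286. The 4 and 4 stimulated libraries did not overlap for 2 of 46 genes, against 15.5% of all genes tested. Psmg1 was lower in every library labelled knockout (21.7 ± 0.596 against 22.7 ± 0.334 FPKM), and Psmc1 was higher (64.5 ± 1.29 against 62.3 ± 0.343 FPKM; SD, n = 4 each). Outside the name rule, Nfe2l1 was slightly higher in libraries labelled knockout (0.088, limma adjusted p = 0.0441) and Ddi2 lower (-0.26, limma adjusted p = 0.00732). Of the 11 interferon response genes 4 were called lower (36.4%, against 5.81% of all genes tested), and the changes of all 11 were negative.

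The response to anti-IgM was also compared between genotypes, although each response rests on 1 unstimulated library that is assumed to vary like the stimulated ones. The difference in response was called for 12 of the 46 genes (26.1%), against 18.9% of all genes tested. It was positive, meaning a more upward response in libraries labelled knockout, for 8 genes (17.4%, against 4.18% of all genes), of which 7 were core genes: Psmb7, Psmb1, Psma3, Psma4, Psmb3, Psma5 and Psma7, with Psmc6 as the eighth. It was negative for 4 genes (8.7%, against 14.7% of all genes): Psmd3, Psmd2, Psme3 and Psmc5. Psmb7 changed by 0.038 in wild type and 0.45 in libraries labelled knockout, a difference of 0.41 (SE 0.0685, limma adjusted p = 0.00473). Psmd3 changed by 1.04 and 0.59, a difference of -0.45 (SE 0.0630, limma adjusted p = 0.00304). The difference was -0.29 for Psme3 (SE 0.0512, limma adjusted p = 0.00574) and 0.36 for Psmb1 (SE 0.0662, limma adjusted p = 0.00716). None of the immunoproteasome subunits was called, with differences of -0.031 for Psmb9, -0.093 for Psmb8 and 0.11 for Psmb10 (limma adjusted p = 0.948, 0.689 and 0.648).

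Each response difference contains the difference within the unstimulated pair, which is 1 library against 1 and has no replicate check. All 14 tested core genes other than the immunoproteasome subunits were lower in the unstimulated library labelled knockout than in the wild-type one, with a median log2 difference of -0.28, and Psmd3 (0.42), Psmd2 (0.31), Psme3 (0.30) and Psmc5 (0.23) were higher. Over all genes tested the median of this pair was 0.067. The split of 8 positive and 4 negative calls became 3 and 9 after rescaling to the same sum, 9 and 1 under median-of-ratios scaling and 16 and 4 under quantile normalization. Psmd3, Psma3, Psmb1 and Psmb7 kept their call in all 18 alternatives, none of which could leave out an unstimulated library. Across the 46 genes, Spearman's rho of transcript length with the difference between genotypes was 0.380 in the unstimulated pair and 0.381 in the stimulated libraries. Across the 9072 tested genes with a length it was 0.248 and 0.0989. These are descriptions over genes that share the same libraries. The median length was 1162.5 bases for core genes and 1819 bases for 19S genes; its part in the difference was not tested.

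**Figure D5:**
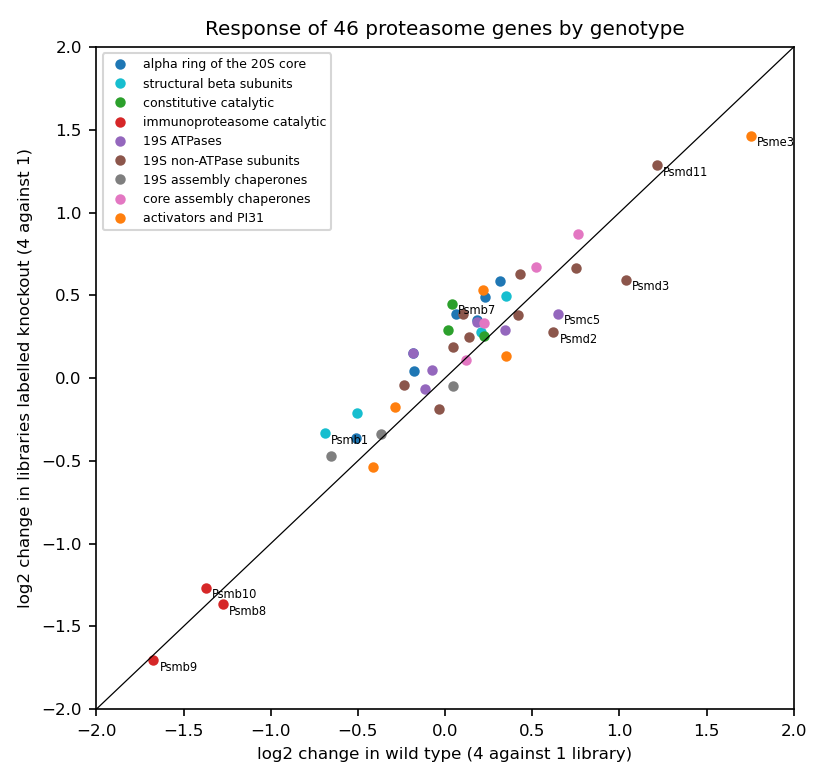
Log2 change with anti-IgM in libraries labelled knockout (vertical) against that in wild type (horizontal), each from 4 stimulated and 1 unstimulated library, for 46 proteasome genes coloured by role, with the line of equal response. The immunoproteasome subunits lie near the line, Psmb7 and Psmb1 above it, and Psmd3, Psmd2, Psmc5 and Psme3 below it.

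Levels varied widely among the proteasome genes. In the stimulated libraries, mean FPKM ran from 6.78 for Psmd9 to 239 for Psme3, and after Psme3 and Psme2 the next were Psma7 (196 FPKM), Psme1 (172 FPKM) and Psmb4 (162 FPKM). Core genes had a median of 118 FPKM and 19S subunit genes one of 65.8 FPKM. Of the 7 chaperone genes, Psmg2 was highest at 67.85 FPKM, and Psmd5 (15.1 FPKM), Psmd10 (14.95 FPKM) and Psmd9 were lowest. The coefficient of variation over the 8 stimulated libraries was 13.4% for Psmb9, 9.62% for Psmb8 and 8.35% for Psmb10, the 3 highest of the 46 genes. The lowest was 1.51%, for Psma3. Summed over all tested proteasome genes, FPKM was 3814 and 3407 without stimulation, 3983 to 4122 in stimulated wild type and 3899 to 4067 in stimulated libraries labelled knockout.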

How the data were processed

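Polyadenylated RNA of 10 mouse B cell libraries was sequenced after stranded library preparation, per the labels' protocols. The authors deposited FPKM per gene with 2 decimals for 17658 genes; RSEM 1.2.14, STAR 2.4 and the build mm10 are named per the submitters' processing notes. The gene annotation and the use of strand in counting are not given in the sources used here. FPKM are not counts, so the absolute depth is unknown; in 81 of 290 low genes searched, every value above 0 was within 15% of a whole multiple of a step, and these gave relative depths of 0.916 to 1.06.

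Genes whose mean over libraries reached 1 FPKM were tested as log2(FPKM + 1) with limma 3.58.1 (R 4.3.3; eBayes with trend, two-sided, Benjamini-Hochberg over 10225 genes). Adding 1 understates changes of low genes. Stimulation was fitted over 10 libraries with genotype as a term, genotype over the 8 stimulated libraries, and the response difference over 4 group means. Ratios of 3 catalytic pairs were tested by exact permutation and adjusted over the 3 pairs. The scripts were tested on simulated data. Named with values in every library were the 6 catalytic subunits and the 6 largest called rises and falls; others are given by role. The members, lists and alternatives were chosen with earlier results of these data known. Promoters and coordinates are from RefSeq (GRCm38.p6). Some genes of the lists outside the name rule are not reported here.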

Additional observations from a re-analysis of the deposited data

Results flagged for a closer look

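In 2 of the 36 groups of 4 libraries examined for a value far from the other 3, such a library was found; chance gives about 1.8. Psmb7 was at 122.85 FPKM in stimulated library D labelled knockout, against 113 to 114.5 FPKM in libraries A to C. The share of Psmb9 in summed Psmb9 and Psmb6 was 15.2% in stimulated wild-type library A, against 18.5% to 18.9% in libraries B to D.

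The response to anti-IgM differed between genotypes by limma's test of the difference for 12 proteasome genes, each resting on 1 unstimulated library per genotype. The log2 difference was -0.45 for Psmd3, -0.34 for Psmd2, -0.29 for Psme3 and -0.26 for Psmc5. It was 0.26 for Psma7, 0.27 for Psma5, 0.30 for Psmb3, 0.32 for Psma4, 0.33 for Psmc6, 0.34 for Psma3, 0.36 for Psmb1 and 0.41 for Psmb7. Psma5 and Psmb3 lost their call in 10 and 9 of 18 alternatives.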

How the results depend on the processing

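With a log2 change of at least 1 required, 5 proteasome genes were called with anti-IgM, 2 higher and 3 lower. With no minimum size, 11 were called lower, and 7 with median-of-ratios scaling. The called response differences numbered 20 after quantile normalization (16 higher), 3 higher and 9 lower after rescaling to the same sum, 5 higher with eBayes without trend and 1 lower with median-of-ratios scaling. Leaving out 1 library gave 0 to 1 called genotype differences. With median-of-ratios scaling the stimulation change turned sign and was called in at least one of the fits for Psma2 (0.17), Psma3 (0.22), Psmc1 (0.22), Psmc3 (0.14), Psmc6 (0.22), Psmd4 (0.12), Psmd9 (0.20) and Psme1 (0.0056). After rescaling to the same sum it did so for Psma3, Psmc1 and Psmc6 (0.15 each) and Psmd4 (0.052). After quantile normalization it did so for Psmb4 (-0.0082), Psmb6 (-0.035), Psmd8 (-0.063) and Psmd9 (0.37). Leaving out 1 library gave -0.19 to 0.15 for Psma3 and -0.18 to 0.15 for Psmc6, both turning sign without the unstimulated wild-type library. Among the scalings, without a call on either side, the sign also turned for Psmd13 with median-of-ratios scaling (0.093) and, after rescaling to the same sum, for Psmd13 (0.022), Psma2 (0.094), Psmc3 (0.072) and Psmd9 (0.14). The cause of these changes was not tested.

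Leaving out 1 library, the change with anti-IgM ranged from -1.96 to -1.82 for the log2 ratio of Psmb9 to Psmb6, from -1.72 to -1.50 for Psmb10 to Psmb7 and from -1.61 to -1.54 for Psmb8 to Psmb5; without 1 of the unstimulated libraries the exact permutation p was 0.111, the smallest that design can give.

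The letter A to D was also fitted as a replicate block. Same-letter libraries did not deviate together (correlations over genes of -0.021, 0.045, 0.0075 and -0.12 for A to D), so the letters were not taken as pairs; the unstimulated libraries, each alone in its group, allow no such check. With the block 29 genes were called with anti-IgM (19 higher, 10 lower; Psma4, Psmb6, Psmb7, Psmd4, Psmd6, Psmd8, Psmd14, Psmg3 and Psmf1 lost their call), none between genotypes, and 9 response differences; the exact permutation p of each pair ratio between genotypes was 0.375 over 16 sign patterns. No response difference could be fitted without an unstimulated library. Depth in reads is unknown, so counting error could not be set apart from other spread.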
